A study of Homo sapiens with 6 samples.

Results

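The 8 genes described here encode adrenergic receptors, G protein-coupled receptor kinases (GRKs) and beta-arrestins. They were picked by gene symbol among the 26025 genes of the deposited RNA-seq table. The rule held no measured value, but it was set with earlier results of these data known. The 8 genes are the receptors ADRA1B, ADRA1D, ADRA2C and ADRB1, the kinases GRK5 and GRK6, and the beta-arrestins ARRB1 and ARRB2. The cells were NCI-H1299, an established human non-small cell lung carcinoma line. Every culture was starved in DMEM for 8 to 12 h and then kept for 48 h in RPMI-1640 with 2% fetal bovine serum. The 3 NE libraries came from cells given 10 µM norepinephrine (NE) during those 48 h, and the 3 Ctrl libraries from cells given vehicle. The vehicle is named DMSO in the sample titles and PBS in the treatment protocol. A single cell line was used at 1 dose and 1 time, and the labels do not say whether the replicates were separate cultures, so the p-values measure only the spread between these libraries.

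Norepinephrine is the transmitter of sympathetic nerves and acts on adrenergic receptors at the cell surface. Alpha-1 receptors (ADRA1B, ADRA1D) couple mainly to Gq and raise calcium, alpha-2 receptors (ADRA2C) couple to Gi and lower cAMP, and beta receptors (ADRB1) couple to Gs and raise cAMP. An occupied receptor is phosphorylated by a GRK, the phosphorylated receptor is bound by a beta-arrestin, and the receptor is thereby uncoupled from its G protein and led into clathrin-coated pits. Long exposure to agonist is also known to lower receptor number in many cells.

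Beta-receptor signalling reaches genes through CREB, a factor that binds the cAMP response element TGACGTCA and its core TGACG. The RefSeq promoter table (GRCh38.p14, from 250 bases before to 50 bases after each start) held a promoter for 6 of the 8 members, all but ADRA1D and ARRB1. The full element, searched on both strands, was in none of the 6, beside 1.85% of all 35116 promoters. The core, which lies within the full element, was in 3 of the 6, beside 24.6% of all promoters. The 3 windows of 81 bases that hold it are shown here because these genes passed the test for a lower level with NE, with the core in capitals, followed by the stretch just before the start of ADRA1B, which has no core and whose level was also lower.
ADRB1, chr10:114043742-114043822, plus strand: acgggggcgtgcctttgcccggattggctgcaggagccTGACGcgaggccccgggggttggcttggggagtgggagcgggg
ARRB2, chr17:4710510-4710590, plus strand: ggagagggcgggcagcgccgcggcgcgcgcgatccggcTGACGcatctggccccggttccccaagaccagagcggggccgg
GRK6, chr5:177426452-177426532, plus strand: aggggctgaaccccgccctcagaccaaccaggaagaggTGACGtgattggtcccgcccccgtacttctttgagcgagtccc
ADRA1B, chr5:159916401-159916481, plus strand: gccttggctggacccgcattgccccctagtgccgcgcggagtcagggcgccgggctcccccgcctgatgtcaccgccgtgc
The RefSeq starts of GRK6, ARRB2 and ADRA1B lie inside the longer GENCODE spans given with their values, and positions are counted from the RefSeq starts. The core begins at position -86 from the start in ADRB1, at -84 in ARRB2 and at -186 in GRK6. The promoters of ADRA2C and GRK5, which did not pass the test for a lower level, have no core either and are not shown. With the trend on GC content described below removed, ADRB1, ARRB2 and GRK6 no longer passed in limma (adjusted p = 0.555, 0.893 and 0.106). ADRA1B, without a core, still did (adjusted p = 0.0343). A match of letters is a description of the sequence and not a binding site, and its part in these levels was not tested.

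The libraries held 16852751 to 17979206 reads on genes. Ctrl replicate 3 stood apart from the other Ctrl libraries. It listed 7305 genes at 0, against 4829 and 4833, and its counts differed from theirs by a chi-square of 50.03 and 45.8 per degree of freedom, against 2.88 between those 2. The carcinoma keratins KRT8 and KRT18 and the mesenchymal filament gene VIM were at 100.2, 406 and 717 FPKM in Ctrl, while EPCAM and KRT19, which mark many lung carcinomas, had no more than 9 reads in any library. The 3 of these markers that could be tested, KRT8, KRT18 and VIM, were lower with NE (VIM at an adjusted p of 0.0462), against 25.5% of all tested genes. After removal of the trend on GC content described below 2 of them were lower, against 17.7% of genes. The 7 markers of leukocytes, endothelium, fibroblasts and hepatocytes that are in the table summed to 0.402 to 0.845 FPKM per library, with ranges of 0.427 to 0.575 in Ctrl and 0.402 to 0.845 in NE. Of the 2 that could be tested, the fibroblast collagen gene COL1A1 was lower with NE (19 to 26 reads in Ctrl and 8 to 12 with NE) and PECAM1 was not past the threshold. The other fibroblast marker, COL3A1, had 0 reads in each Ctrl library and 7, 7 and 8 with NE. The part of these cell types in the results was not tested. None of the 7 was at 0 in all 6 libraries. Because RNA was taken from whole cultures, fewer cells expressing a gene and less of its RNA per cell cannot be told apart.

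With NE, 6 of the 8 genes were lower at an adjusted p under 0.05, none was higher, and 2 of the 6 were lower by at least 1 on the log2 scale. Values are normalized counts, the deposited reads per gene divided by a size factor for each library. Log2 fold changes are on the scale of log2(normalized count + 1), and adjusted p-values are from limma with Benjamini-Hochberg adjustment over the 15013 genes tested. Over all tested genes 25.5% were lower and 24.6% higher, and 6.55% were lower by at least 1 on the log2 scale. Scaling by the total reads on genes in place of the deposited size factors moved the median log2 fold change of all tested genes from 0.01 to 0.15 and the calls from 3693 higher and 3828 lower to 4583 higher and 3002 lower. Under that scaling 4 members were lower and 1 higher. Levels in FPKM (reads corrected for the merged exon length of the gene and for the total reads on genes) carry that scaling, also where the groups are set side by side in them, and serve to compare levels between genes and sums of genes. No fold change or test uses them.

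GC content moved with the treatment across the transcriptome. The median log2 fold change was 0.53 for the 5969 tested genes under 45% GC, -0.15 for the 5000 from 45 to 55%, -0.61 for the 3561 from 55 to 65%, and -0.75 for the 425 above 65%. Of the 3561 genes from 55 to 65% GC, 54.7% were lower with NE. No member lies in the bin under 45%. GRK5 and ARRB1 lie between 45 and 55%, ADRA1B, ADRB1, GRK6 and ARRB2 between 55 and 65%, and ADRA1D and ADRA2C above 65%. Once the GC trend had been taken out of every library, 17.7% of 14955 genes were lower and 14.5% higher, and 3 members were past the threshold, ADRA1B and ADRA1D lower and ADRA2C higher. The trend differed between the groups, so that it and the effect of NE cannot be told apart here, and each member's value after its removal is given beside the result.

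In Ctrl cells the members spanned a wide range of levels per length, and the order of their means was the same in both groups. GRK6 was the highest at 26.6 FPKM (range 24.03 to 30.8, n = 3), followed by ADRA1B at 12.4 (12.2 to 12.6) and ARRB2 at 4.58 (3.63 to 5.17). GRK5 came next at 2.63 FPKM, then ADRA2C at 1.64, ARRB1 at 1.41, ADRB1 at 0.894 and ADRA1D at 0.673. Among neighbours in this order, the Ctrl ranges overlapped only for ADRA2C (1.44 to 1.90) and ARRB1 (1.20 to 1.58). With NE they overlapped for GRK5 (2.34 to 2.85) and ADRA2C (2.24 to 2.91), and in NE replicate 1 ADRA2C lay level with ARRB2 and above GRK5. The alpha-1B receptor was thus the most abundant receptor transcript of the 4.

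**Figure D1:**
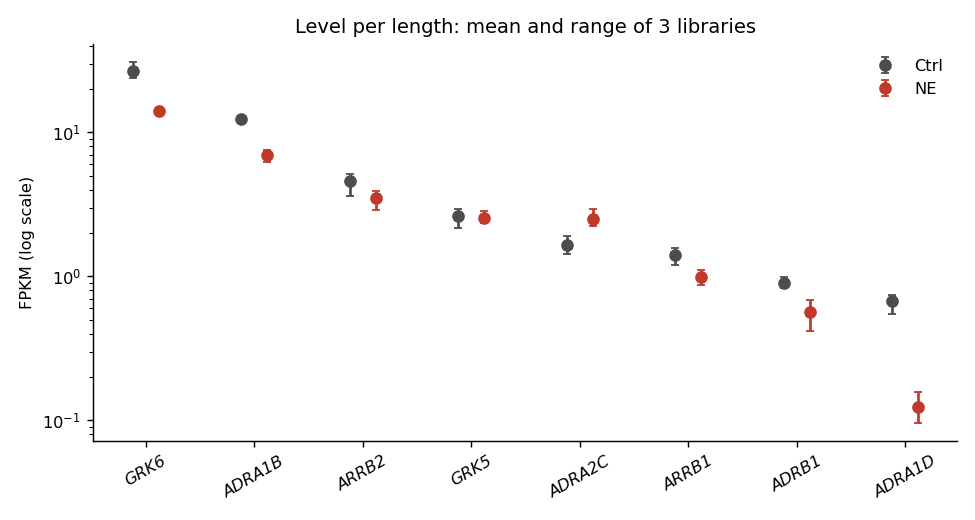
Level of each member in FPKM on a log axis, with points for the group mean, bars for the range of 3 libraries, grey for Ctrl and red for NE. The order of the means from GRK6 (26.6 FPKM in Ctrl) to ADRA1D (0.673 FPKM) is the same with NE, where GRK5 and ADRA2C overlap, and ADRA2C is the one member whose NE range lies above its Ctrl range.

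Among the receptors, transcripts for both alpha-1 members, ADRA1B and ADRA1D, fell with NE. ADRA1B (ENSG00000170214, chr5:159865080-159973012, plus strand, 2 exons) had 709, 723 and 676 normalized counts in Ctrl and 335, 390 and 356 with NE. The groups did not overlap, as for 28.9% of all tested genes in this direction, and the lowest Ctrl library was well above the highest NE library. The mean went from 703 ± 23.95 to 361 ± 27.9 (SD, n = 3), a log2 fold change of -0.96 (SE 0.12, 95% CI -1.23 to -0.70, adjusted p = 0.000325). It was past the threshold without each library in turn, at -1.02 to -0.91. After the GC trend (gene GC 60.2%) was removed the log2 fold change was -0.36 (adjusted p = 0.0343).

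ADRA1D (ENSG00000171873, chr20:4220630-4249287, minus strand, 2 exons) encodes the alpha-1D receptor, which resides largely inside the cell. It had 40.8, 30.1 and 38.2 normalized counts in Ctrl and 4.94, 7.75 and 5.48 with NE, from 39, 29 and 39 reads and 5, 8 and 6 reads. All NE libraries were far below all Ctrl libraries, though on few reads. The log2 fold change was -2.41 (SE 0.40, 95% CI -3.31 to -1.52, adjusted p = 0.00122), the largest among the 8 genes. It stayed between -2.58 and -2.30 without each library in turn. After the GC trend (gene GC 65.5%) was removed it was -1.74 (adjusted p = 0.00601).

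ADRB1 (ENSG00000043591, chr10:114043866-114046904, plus strand, 1 exon) encodes the beta-1 receptor, the main beta receptor of the heart. It had 48.2, 45.6 and 52.9 normalized counts in Ctrl and 21.7, 29.1 and 32.9 with NE. The groups did not overlap, as for 28.9% of all tested genes in this direction. The log2 fold change was -0.81 (SE 0.28, 95% CI -1.43 to -0.18, adjusted p = 0.0356). This call was fragile: 1 of the 6 fits that leave out a library was past the threshold (adjusted p = 0.0449 to 0.101), and after the GC trend (gene GC 58.8%) was removed the value was -0.24 (adjusted p = 0.555). It was also not past the threshold under scaling by total reads, at -0.67 (adjusted p = 0.0790).

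ADRA2C (ENSG00000184160, chr4:3766348-3768526, plus strand, 1 exon), the Gi-coupled alpha-2C receptor, went the other way. It had 75.4, 57.0 and 60.8 normalized counts in Ctrl and 109, 85.2 and 76.8 with NE. The ranges did not overlap, as for 29.7% of tested genes with NE higher, but the highest Ctrl and lowest NE libraries lay next to each other. The log2 fold change of 0.48 (SE 0.22, 95% CI -0.03 to 0.98) did not pass the threshold (adjusted p = 0.103), nor did it without any 1 library. It did pass under scaling by total reads, at 0.61 (adjusted p = 0.0400), and after the GC trend (gene GC 69.6%) was removed, at 1.16 (adjusted p = 0.00290). With a GC content of 69.6% it lies in the bin in which 56.0% of genes were lower with NE and 1.88% higher. The related alpha-2A receptor gene ADRA2A had 0 to 2 reads per library and was not tested.

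**Figure D2:**
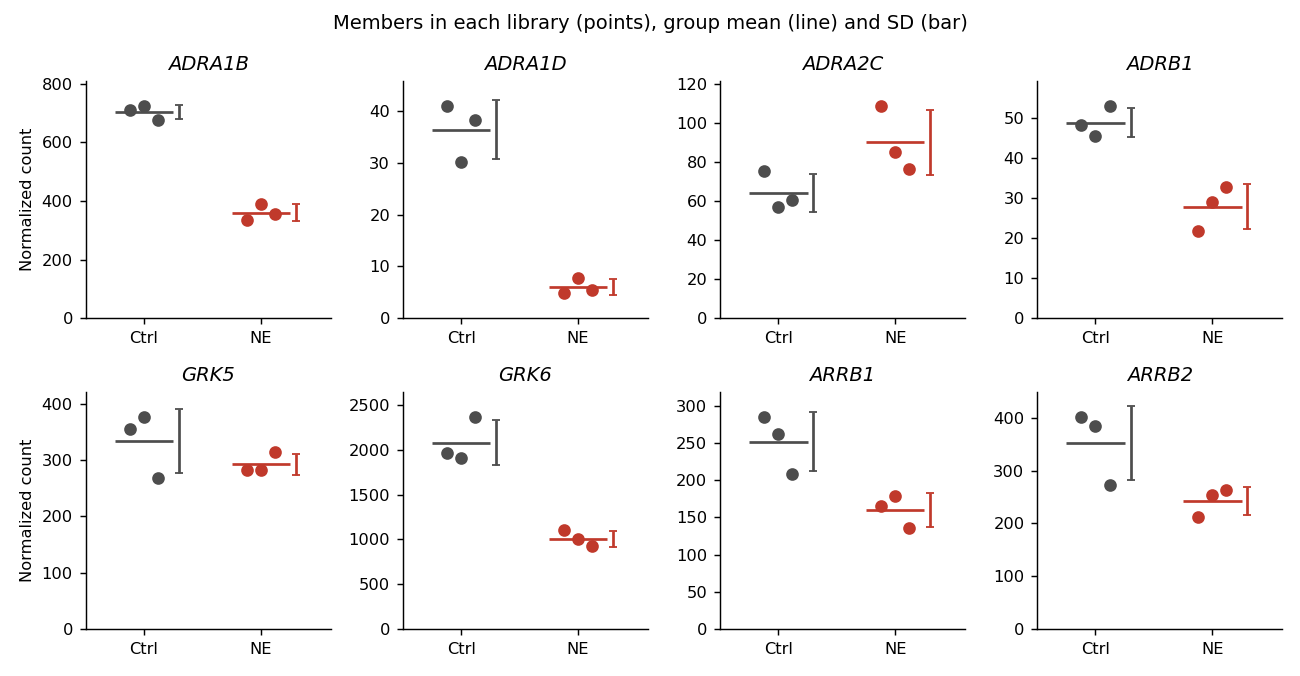
Normalized counts of the 8 members, a panel for each gene with its own axis from 0, with points for libraries, lines for group means and bars for the SD (n = 3). The NE points lie below the Ctrl points for ADRA1B, ADRA1D, ADRB1, GRK6, ARRB1 and ARRB2, above them for ADRA2C, and among them for GRK5.

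Both the sum of the receptor transcripts and their makeup are given here as a description. The summed level of the 4 receptors was 15.9, 15.4 and 15.5 FPKM in Ctrl and 9.65, 10.7 and 10.2 FPKM with NE, or 15.6 ± 0.265 and 10.2 ± 0.548 (SD, n = 3). ADRA1B held most of this sum in every library, at 79.5 ± 2.05% in Ctrl and 68.5 ± 3.51% with NE. The share of ADRA2C was 12.0, 9.32 and 10.2% in Ctrl and 30.2, 22.3 and 21.9% with NE, and that of ADRA1D 4.31 ± 0.645% and 1.20 ± 0.245%. For these 3 genes the ranges of the groups did not overlap. ADRB1 held 5.74 ± 0.564% and 5.50 ± 1.19%, with overlapping ranges. No test was run on these sums and shares.

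GRK5 and GRK6 belong to the membrane-bound GRK4 subfamily, whereas GRK2 and GRK3 are recruited to the membrane by G beta-gamma. GRK6 (ENSG00000198055, chr5:177403204-177442901, plus strand, 16 exons) had 1970, 1908 and 2366 normalized counts in Ctrl and 1101, 1002 and 922 with NE. All NE libraries were far below all Ctrl libraries, with Ctrl replicate 3 the highest of the 6. GRK6 thus had a log2 fold change of -1.04 (SE 0.12, 95% CI -1.32 to -0.76, adjusted p = 0.000283), and -0.95 without Ctrl replicate 3, so that the size threshold of 1 is missed without that library. After the GC trend (gene GC 62.5%) was removed the value was -0.40 and no longer past the threshold (adjusted p = 0.106). GRK6 shares 399 exon bases with F12 on the opposite strand, and the sources used here do not say whether strand was used in counting. F12 had 90.1, 123 and 141 normalized counts in Ctrl and 29.6, 38.7 and 31.1 with NE, and its part in the GRK6 values was not tested.

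GRK5 (ENSG00000198873, chr10:119207571-119459745, plus strand, 16 exons) had 356, 376 and 269 normalized counts in Ctrl and 282, 282 and 314 with NE. The ranges overlapped because Ctrl replicate 3 was the lowest of all 6 libraries. The log2 fold change was -0.18 (SE 0.16, 95% CI -0.54 to 0.18, adjusted p = 0.382). Without Ctrl replicate 3 it was -0.32 and past the threshold (adjusted p = 0.0333), and after the GC trend (gene GC 54.0%) was removed it was 0.22 (adjusted p = 0.214), so that its direction depends on the processing.

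The remaining kinases of the family moved in different directions. GRK3 was higher with NE, at 183, 151 and 170 normalized counts in Ctrl and 346, 307 and 303 with NE, a log2 fold change of 0.92 (SE 0.14, adjusted p = 0.000975), and 0.59 after the GC trend (gene GC 43.4%) was removed (adjusted p = 0.0106). GRK2 had 1557, 1363 and 1355 normalized counts in Ctrl and 1081, 991 and 1135 with NE (log2 fold change -0.41, SE 0.11, adjusted p = 0.0128). The GRK2 call was lost without Ctrl replicate 1 (-0.35, adjusted p = 0.0609), without NE replicate 2 (-0.36, adjusted p = 0.0726) and under scaling by total reads (-0.28, adjusted p = 0.0703), and after the GC trend (gene GC 61.8%) was removed its direction turned to 0.22 (adjusted p = 0.162). GRK4 differed by 0.02 (SE 0.16, adjusted p = 0.939), and by 0.06 after the GC trend was removed (adjusted p = 0.770). Of the 7 kinases of the family 5 were tested, with 1 higher, 2 lower and 2 not past the threshold. Over all tested genes 24.6% were higher and 25.5% lower. GRK1 and GRK7 were not found in the deposited table.

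Summed over GRK2 to GRK6, the level was 44.4 ± 3.34 FPKM in Ctrl and 31.1 ± 0.831 FPKM with NE (SD, n = 3). Per merged exon length, GRK6 had the highest level of the 5 kinases in every library and held 56.6, 58.2 and 64.3% of the sum in Ctrl and 46.8, 46.8 and 42.6% with NE. GRK3 held 2.26 ± 0.175% and 6.70 ± 0.159%. Between the 2 members GRK5 and GRK6, GRK6 held 90.8 ± 2.30% in Ctrl and 84.7 ± 1.93% with NE, and the ranges did not overlap.

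Both beta-arrestins, the adaptors that bind GRK-phosphorylated receptors, were lower with NE, by less than 1 on the log2 scale. ARRB1 (ENSG00000137486, chr11:75260122-75351705, minus strand, 16 exons) had 285, 262 and 209 normalized counts in Ctrl and 165, 179 and 135 with NE. The groups did not overlap, as for 28.9% of all tested genes in this direction, with Ctrl replicate 3 the lowest of its group. For ARRB1 the log2 fold change was -0.65 (SE 0.18, 95% CI -1.05 to -0.25, adjusted p = 0.0140). It was not past the threshold without Ctrl replicate 1 (-0.56, adjusted p = 0.0574), without NE replicate 3 (-0.54, adjusted p = 0.0582) or after the GC trend (gene GC 54.4%) was removed (-0.25, adjusted p = 0.256). ARRB1 shares 2338 exon bases on the same strand with ENSG00000279117, which had 122, 132 and 119 normalized counts in Ctrl and 96.8, 87.2 and 90.5 with NE, so that the reads of the 2 genes are uncertain.

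ARRB2 (ENSG00000141480, chr17:4710596-4721499, plus strand, 15 exons) had 401, 384 and 272 normalized counts in Ctrl and 213, 253 and 262 with NE. Ctrl replicate 3 lay close to the NE libraries, and the others of its group far above them. For ARRB2 the log2 fold change was -0.52 (SE 0.18, 95% CI -0.93 to -0.12, adjusted p = 0.0357). Without Ctrl replicate 3 it was -0.70 (adjusted p = 0.000504), without any other single library it was not past the threshold (-0.42 to -0.58, the highest adjusted p 0.127), and under scaling by total reads it was -0.39 (adjusted p = 0.107). After the GC trend (gene GC 58.2%) was removed it was 0.03 (adjusted p = 0.893). In FPKM the ranges of the groups overlapped, at 3.63 to 5.17 in Ctrl and 2.91 to 3.91 with NE.

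ARRB2 held 76.3 ± 1.05% of the summed beta-arrestin FPKM in Ctrl and 77.8 ± 3.60% with NE, and the ranges of the groups overlapped. Their sum was 6.75, 6.39 and 4.82 FPKM in Ctrl and 3.89, 4.74 and 4.78 FPKM with NE, with Ctrl replicate 3 next to the NE libraries. The visual arrestin ARR3 had 1 to 15 reads per library and was not tested, and SAG was not found in the deposited table.

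**Figure D3:**
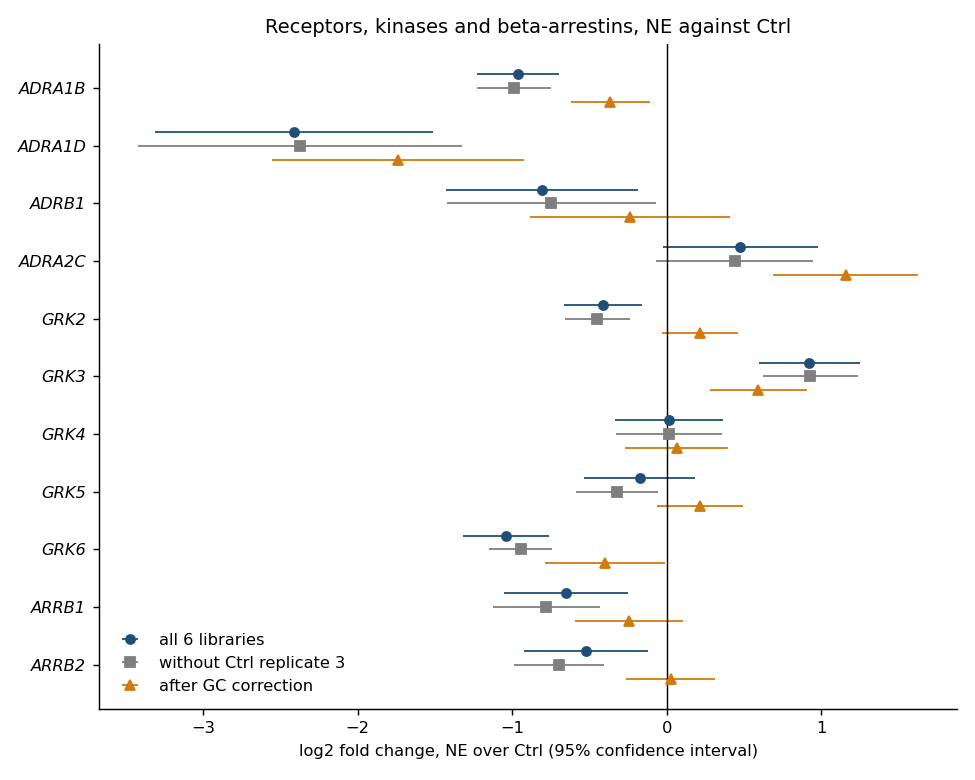
Log2 fold change of NE over Ctrl, with 95% confidence intervals, for the 4 receptors, 5 kinases and 2 beta-arrestins, from all 6 libraries (circles), without Ctrl replicate 3 (squares) and after the GC trend was removed (triangles). The symbols of ADRA1B, ADRA1D, ADRB1, GRK6 and ARRB1 lie below 0 and those of GRK3 above 0 with all 3. For each of these genes the triangle lies nearer to 0 than the circle. The symbols of ADRA2C and GRK4 also lie above 0 with all 3, and their triangles lie farther from 0 than their circles. The triangles of ARRB2, GRK2 and GRK5 lie on the other side of 0 from their circles.

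The alpha-arrestins, a related family that links membrane proteins to ubiquitin ligases, held the largest change of any gene named here. ARRDC3, which is known to bind beta-adrenergic receptors and direct their sorting in endosomes, rose from 518, 567 and 702 normalized counts in Ctrl to 5344, 4395 and 4350 with NE. Its log2 fold change was 2.98 (SE 0.14, adjusted p = 3.54e-06), and 2.38 after the GC trend was removed (adjusted p = 2.55e-07). ARRDC1, which acts in the budding of vesicles from the cell surface, fell by 1.24 on the log2 scale (SE 0.14, adjusted p = 0.000216), and by 0.59 after the GC trend was removed (adjusted p = 0.00113). ARRDC2 had a log2 fold change of -0.65 (SE 0.15, adjusted p = 0.00545), and of -0.02 after the GC trend was removed (adjusted p = 0.916). Of the 6 genes of the family 4 were in the table, and 1 of the 3 tested was higher and 2 lower, against 24.6% and 25.5% of all tested genes.

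Of the 23 genes listed for receptor endocytosis and recycling, all tested, 4 were higher and 9 lower, against 24.6% and 25.5% of all tested genes, with a median log2 fold change of -0.15. After the GC trend was removed 1 was higher and 6 were lower, against 14.5% and 17.7% of all genes. CLTC, the clathrin heavy chain, had a log2 fold change of 0.54 (SE 0.16, adjusted p = 0.0222), which was not past the threshold in 4 of the 6 fits without 1 library, namely those without Ctrl replicate 1 or 2 or NE replicate 1 or 2 (0.44 to 0.56), and was -0.01 after the GC trend was removed (adjusted p = 0.960). AP2S1, the small subunit of the AP-2 clathrin adaptor, fell by 1.18 (SE 0.14, adjusted p = 0.000252) and the early endosome GTPase gene RAB5C by 1.05 (SE 0.16, adjusted p = 0.000924). After the GC trend was removed both were still lower, at -0.75 (adjusted p = 0.000485) and -0.59 (adjusted p = 0.00604). Of the 13 receptor scaffolds and ubiquitin enzymes, 7 were higher and 4 lower, against 24.6% and 25.5% of all tested genes, with a median of 0.64. With the GC trend removed 2 were higher and 2 lower, against 14.5% and 17.7% of all genes. AKAP5, an anchor for protein kinase A at beta receptors, rose by 1.24 (SE 0.31, adjusted p = 0.00886) on 19 to 74 reads per library, and was at 0.57 and no longer past the threshold after the GC trend was removed. The PDZ scaffolds NHERF2, at -1.12 (SE 0.19, adjusted p = 0.00125), and GIPC1, at -1.23 (SE 0.11, adjusted p = 9.35e-05), were lower, and both were past the threshold after the GC trend was removed, at -0.44 and -0.60.

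Of the 27 receptors for other amines, 14 were in the table, 4 could be tested, and 1 was lower, against 25.5% of all tested genes. That gene was the serotonin receptor gene HTR1D, at 237, 235 and 241 normalized counts in Ctrl and 93.9, 116 and 120 with NE. Its log2 fold change was -1.11 (SE 0.16, adjusted p = 0.000646), and -0.91 after the GC trend was removed (adjusted p = 0.00189).

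The genes whose profile over the 6 libraries was most like that of ADRA1D, by the root mean square difference between profiles of log2(normalized count + 1) centred on their means, were ISLR2 (0.182), PEAR1 (0.201) and SEMA7A (0.221). Their log2 fold changes were -2.41, -2.06 and -2.68, and -1.77, -1.47 and -2.06 after the GC trend was removed, at Ctrl means of 401, 126 and 315 normalized counts.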

How the data were processed

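Per the labels, the authors aligned reads with HISAT2 2.0.5 to hg38 and counted them with featureCounts 1.5.0-p3, and the library kit was NEBNext Ultra. The deposited values are named FPKM but hold a signal equal to reads divided by 1 size factor per library: 100.0% of them were whole multiples of 1 read, within 0.1 read. Genes averaging 10 or more normalized counts were tested with limma 3.58.1 (trend) on log2(value + 1), with no covariate. FPKM used GENCODE 44 merged exons. The GC correction removed a natural spline (5 degrees of freedom) of each library's log2 values on gene GC content. In all 20 alternatives were planned, among them edgeR 4.0.16 and DESeq2 1.42.0 on recovered reads, and 2 were added after seeing the data. In simulated NE against Ctrl data over 14799 genes, 99.0% of 200 genes changed by 1.5 on the log2 scale were recovered and 15 unchanged genes were called. No other size of change was simulated, so the recovery does not bear on member calls from -1.04 (GRK6) to -0.52 (ARRB2). The figures were not split by gene level or GC content. They therefore cannot be read for genes on few reads, such as ADRA1D and ADRB1, or for calls along the GC trend. Intervals and limits cover counting and replicate error only.

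The members and the gene lists were chosen with earlier results of these data known. Named genes were the 8 members, genes of the lists past an adjusted p of 0.05 and a log2 fold change of 1 in size, at most 3 further genes a list with the highest mean FPKM, and the 3 genes with the profile most like that of the member with the largest change. Some genes of the lists are not reported here. Same-numbered Ctrl and NE replicates are not paired by the labels.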

Additional observations from a re-analysis of the deposited data

How the results depend on the processing

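Of the 22 alternatives, ADRA1D kept its direction and its side of the threshold in all 21 that could be computed for it, with log2 fold changes of -2.72 to -1.55. ADRA1B did so in 21 of 22 and GRK6 in 19 of 22. The number of members past the threshold was 6, and 3 after the GC correction, 2 with the replicate block and the GC correction, and 3 with the GC correction without Ctrl replicate 3, an alternative added after seeing the data, as was scaling by total reads (5 members). Leaving out 1 library gave 3 to 6, with 3 without Ctrl replicate 1. Calls over all tested genes moved as well, from 3693 higher and 3828 lower with all 6 libraries and no correction. They were 2949 and 3021 without Ctrl replicate 1, and 4780 and 4894 without Ctrl replicate 3. With the replicate block and the GC correction they were 1601 and 2003. The number of members that also changed by at least 1 on the log2 scale was 2, and 1 with a minimum mean of 50, with quantile normalization and with scaling by total reads. With the GC correction it was again 2, but 1 lower and 1 higher, as GRK6 dropped out and ADRA2C came in. Leaving out 1 library gave 1 to 3, with 1 without Ctrl replicate 3 and without NE replicate 3. ADRB1 was not past the threshold in DESeq2 or with no filter. Same-numbered replicates did not deviate together (r = -0.163, 0.08 and -0.151), and the replicate block, which gave 4 members, has no design behind it.

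Directions turned for GRK5 at 0.215 (GC correction, with or without the replicate block) and 0.137 (GC correction without Ctrl replicate 3), for ARRB2 at 0.027 with the GC correction, with or without the block, and for GRK2 at 0.216 with it, with or without the block, and 0.307 (adjusted p = 0.0209) without Ctrl replicate 3. GRK4 turned to -0.029 with quantile normalization and ranged from -0.091 to 0.095 without 1 library, CLTC turned to -0.008 with the GC correction, with or without the block, and ARRDC2 turned to 0.048 with the GC correction without Ctrl replicate 3. Following the GC correction, 1 adrenergic receptor, 1 endocytosis gene, 2 scaffolds and 1 other amine receptor of the lists were higher. In the lower direction were 0 kinases, 0 beta-arrestins, 1 alpha-arrestin, 6 endocytosis genes, 2 scaffolds, 2 carcinoma markers and 0 other cell markers. Over all genes 14.5% were higher and 17.7% lower with this correction. In addition, ADRA1B, ADRA1D and HTR1D stayed lower past the threshold, and GRK3 and ARRDC3 stayed higher. With normalized counts in place of FPKM, GRK6 held 86.01 and 77.42% of the kinase pair in Ctrl and NE, ARRB2 58.16 and 60.26% of the arrestin pair, and ADRA1B 82.44 and 74.33% of the 4 receptors, since gene length then enters. In these counts GRK2 held 39.88% of the kinase sum in NE replicate 3, above GRK6 at 32.4%. For the other changes the cause was not tested. ADRA1D rests on 5 to 8 reads per library with NE, and ADRA2A, on 0 to 2, could not be tested.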
